A study of Mus musculus with 5 samples.

Results

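The S-phase and mitosis genes are 42 mouse genes whose products copy the DNA or divide the cell. They comprise 26 genes of G2 and mitosis and 16 genes of the G1/S step and DNA replication. They were chosen by name and not by a measured value, though with earlier results of these data known. The choice was made from the 31055 genes listed in each library, and all 42 were found in every library under the names used here.

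Skeletal muscle around the tibia of Prx1Cre;mTmG mice on a C57Bl/6 background was analysed by single-cell RNA-seq (scRNAseq) in 5 libraries, 1 per condition. In these mice a Cre recombinase driven by Prx1, a gene of the limb mesenchyme, switches the cells in which it has acted, and their descendants, to membrane GFP, and GFP+ cells were sorted. Each library was made from 2 pooled mice of 10 to 14 weeks, without periosteum or bone marrow. The conditions were uninjured muscle (d0), d3 and d5 after a non-stabilized tibial fracture (d3 and d5 post-fracture), and d3 and d5 after the same fracture combined with a mechanical injury of the adjacent muscles (d3 and d5 post-polytrauma).

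The conditions of 2 libraries departed from their deposited labels. The library deposited as d3 post-polytrauma was used as d5 post-fracture, because its 2001 barcodes equal the cell total that the study's source data give for d5 post-fracture, and the library deposited as d5 post-fracture, with 6915 barcodes, was used as d3 post-polytrauma. The shares of cells per library and the counts of members past a fold that this exchange touches were also computed with the deposited labels. The shares of cells split by cell type markers were not. The libraries also fell into 2 sets of cell barcodes. Between 405 and 525 barcodes were found in both members of each pair among the d0, d3 post-fracture and d3 post-polytrauma libraries, 944 in both d5 libraries, and 0 to 3 across the sets. The labels name the same kit for all libraries, and the day after injury and the barcode set cannot be told apart. Cells with 350 to 8000 genes, under 20% mitochondrial UMIs (unique molecular identifiers, 1 per captured transcript) and at least 1000 UMIs were retained. There were 4632 cells at d0, 5589 at d3 post-fracture, 1468 at d5 post-fracture, 6201 at d3 post-polytrauma and 11941 at d5 post-polytrauma. Their median depths were 3640, 17963, 34949, 15688 and 15753 UMIs in the same order. With 1 library per condition, no difference between conditions has a replicate check or a test, and intervals (95%, exact Poisson for levels and Clopper-Pearson for shares) cover counting error only.

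A dividing cell copies its genome in S phase and separates the copies in mitosis. Cyclin E with its kinase commits the cell to S phase, Cdc6 and the Mcm2 to Mcm7 helicase license and open the replication origins, and ribonucleotide reductase (Rrm1 and Rrm2) and thymidylate synthase (Tyms) supply the building blocks. Cyclins A and B with Cdk1 then drive mitosis, in which kinesins, centromere proteins and the Aurora and Polo kinases order the spindle, and the ubiquitin ligase that works with Ube2c and Cdc20 ends it. Resting mesenchymal progenitors of adult muscle divide rarely and are known to proliferate after injury.

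Many such genes carry short promoter elements in common. A CDE/CHR element, whose CHR part reads TTTGAA or TTCGAA, and CCAAT boxes are known from G2/M genes, and E2F sites from G1/S genes. The promoters of 33 members (20 mitosis and 13 S-phase genes) were matched to RefSeq on GRCm38.p6, from 250 bases before to 50 bases after the RefSeq start, and searched on both strands. A gene was counted when any of its promoters held the letters. CHR letters were present in 16 of 20 mitosis members (80%), 2 of 13 S-phase members (15.4%) and 21.7% of all 27025 genes with a promoter. E2F-type letters (TTTCCCGC, TTTGGCGC, TTTCGCGC or TTTGCCGC) were present in 7 of 13 S-phase members (53.8%), 1 of 20 mitosis members (5%) and 2.605% of all these genes. CCAAT was present in 18 of 20 mitosis members (90%), 10 of 13 S-phase members (76.9%) and 41.1% of all these genes. A CHR match together with CCAAT in the same promoter was found in 16 of 20 mitosis members and 2 of 13 S-phase members. For this pair the background was counted per promoter and not per gene, at 7.52% of all 32851 promoters. These matches are letters in a window and not evidence of binding.

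The following stretches show these letters in place. The first 5 are the 100 bases before the start of mitosis genes described below, with CHR and CCAAT letters, or their reverse complements, in capitals. Mki67 is shown because its CHR match lies far from the start and no CCAAT falls in these 100 bases.
Top2a (chr11:99024190-99024289, minus strand): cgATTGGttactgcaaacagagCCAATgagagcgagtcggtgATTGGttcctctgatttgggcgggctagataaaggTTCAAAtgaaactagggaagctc
Cdc20 (chr4:118437344-118437443, minus strand): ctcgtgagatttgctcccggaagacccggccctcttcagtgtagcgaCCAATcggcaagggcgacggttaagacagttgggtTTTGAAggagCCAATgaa
Kif11 (chr19:37376282-37376381, plus strand): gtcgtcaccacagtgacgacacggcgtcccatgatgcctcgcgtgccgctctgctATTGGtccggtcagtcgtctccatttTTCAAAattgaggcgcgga
Hmgb2 (chr8:57511743-57511842, plus strand): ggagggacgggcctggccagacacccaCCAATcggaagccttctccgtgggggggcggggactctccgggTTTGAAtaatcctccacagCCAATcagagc
Mki67 (chr7:135716380-135716479, minus strand): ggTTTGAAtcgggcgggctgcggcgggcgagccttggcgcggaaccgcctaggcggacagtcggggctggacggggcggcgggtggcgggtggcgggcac
For 2 helicase genes the 160 bases before the start are given, with the E2F-type letters on either strand in capitals. Overlapping matches run together, and CCAAT letters, which are also present in both, are left in lower case.
Mcm5 (chr8:75109349-75109508, plus strand): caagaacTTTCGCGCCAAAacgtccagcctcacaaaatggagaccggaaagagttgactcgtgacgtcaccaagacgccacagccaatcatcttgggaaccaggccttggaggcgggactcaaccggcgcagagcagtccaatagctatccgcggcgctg
Mcm6 (chr1:128359706-128359865, minus strand): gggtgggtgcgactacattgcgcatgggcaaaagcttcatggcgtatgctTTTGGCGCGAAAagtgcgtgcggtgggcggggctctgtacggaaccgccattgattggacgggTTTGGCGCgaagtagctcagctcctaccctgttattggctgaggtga

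Before injury the mitosis genes were close to the limit of detection. A level is given here in CPM, the UMIs of a gene per 1000000 UMIs, summed over the cells of a library. The 42 members together held 388 CPM at d0, and they held 2200 at d3 post-fracture, 1728 at d5 post-fracture, 2004 at d3 post-polytrauma and 2637 at d5 post-polytrauma. The mitosis members held 166, 1519, 1314, 1361 and 1917 CPM of these, and the S-phase members 222, 682, 415, 643 and 720. The d0 library thus had the lowest sum of both groups, and the d5 post-polytrauma library the highest. With median-of-ratios scaling, which sets the median gene of the libraries near level in place of the UMI total, the 42 members summed to 338, 2862, 1350, 2524 and 2366, and the highest was d3 post-fracture. In these sums a larger share of dividing cells and more RNA per dividing cell cannot be told apart.

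**Figure D1:**
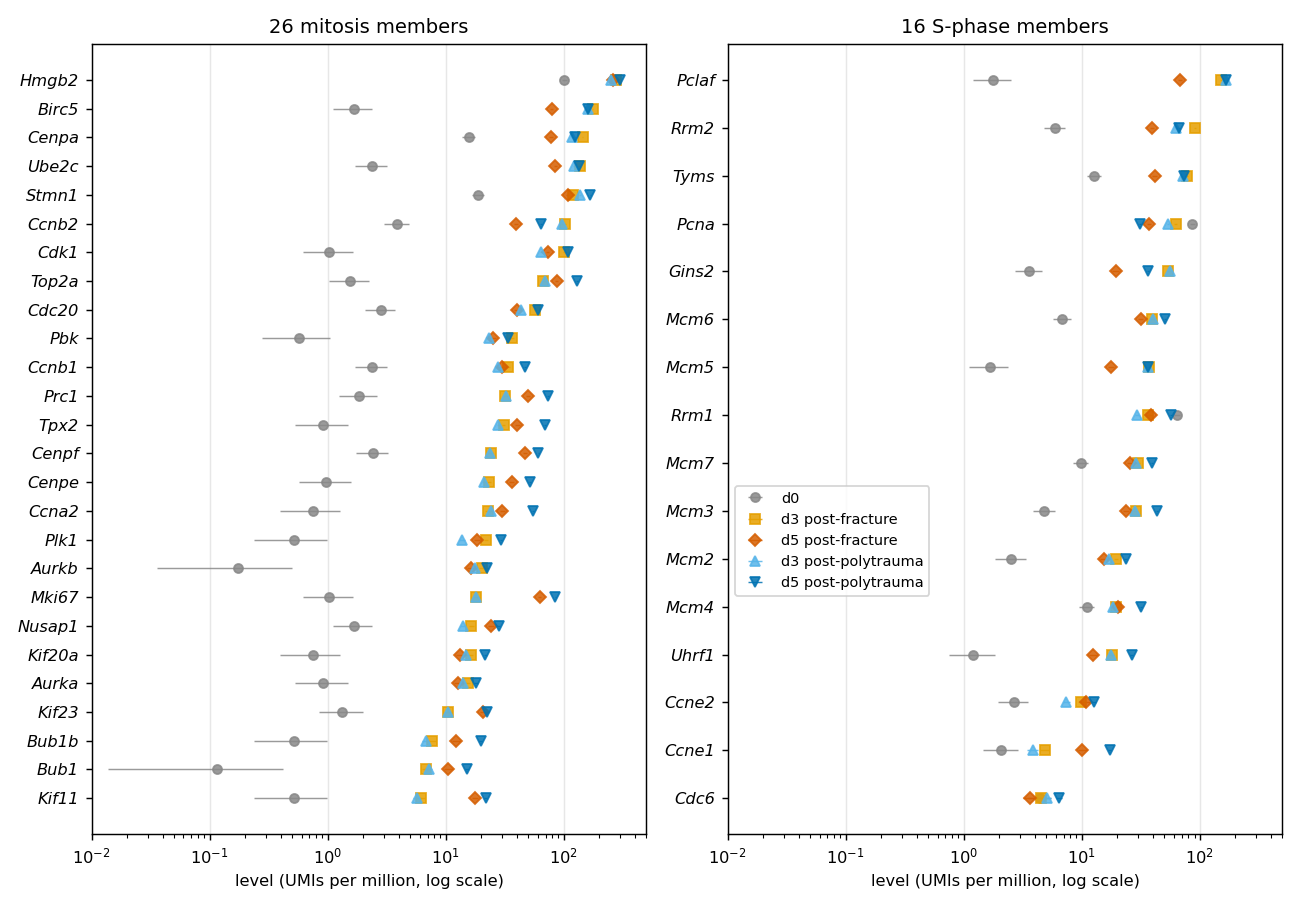
Level of each of the 42 members (CPM, log scale) in the 5 libraries, with 95% Poisson intervals that cover counting error only. The d0 points of the mitosis members lie to the left of all others, while on this scale Pcna and Rrm1 were highest at d0 and Cdc6 ranged from 3.66 to 6.42 (with median-of-ratios scaling Pcna was highest at d3 post-fracture).

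The Top2a gene encodes the topoisomerase that untangles replicated DNA. It held 1.55 CPM at d0 (1.02 to 2.25), 66.2 at d3 post-fracture, 87.4 at d5 post-fracture, 69.1 at d3 post-polytrauma and 129 at d5 post-polytrauma. Mki67, which coats mitotic chromosomes and is the common marker of proliferation, held 1.03, 18.2, 62.1, 18.2 and 84.7 CPM in the same order. Both genes were equal or nearly so in the d3 libraries and highest at d5 post-polytrauma. The d0 level of Bub1, a spindle checkpoint kinase, rested on 2 UMIs and that of Aurkb on 3, so that the ratio of d3 post-fracture to d0 was 59.5 (16.4 to 492) for Bub1 and 117 (39.9 to 567) for Aurkb.

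A few members stood well above this floor in uninjured muscle. Hmgb2, a chromatin protein, held 101 CPM at d0, and Stmn1 and Cenpa, a microtubule regulator and the centromeric histone, held 18.8 and 15.6. Among the S-phase genes Pcna, the sliding clamp of the DNA polymerases that also serves DNA repair, held 86.5 CPM at d0, and Rrm1, the large subunit of ribonucleotide reductase, held 64.4. The small subunit Rrm2, which is made in S phase, held 5.91. Uninjured muscle therefore held UMIs of Pcna and Rrm1 at levels above those of any injured library, next to mitosis genes that, but for Hmgb2, Stmn1 and Cenpa, were under 4 CPM. With median-of-ratios scaling this order turned for Pcna, at 75.3 at d0 and 81.02 at d3 post-fracture, and not for Rrm1, at 56.1 and 47.2.

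These d0 transcripts were also found in cells that held no other member. For shares of cells, each cell was thinned to 2000 UMIs, which left 3888 cells at d0. Of the d0 cells with no other member, 15.1% held a Pcna UMI and 7.45% an Rrm1 UMI. Pcna was found at like shares in cells with at least 2 markers of FAP/MP (fibro-adipogenic and mesenchymal progenitors; 15.9%), tenocytes (16.8%) and pericytes (19.4%). Rrm1 was uneven. It was found in 143 of 382 pericyte-marker cells (37.4%, 32.6 to 42.5), against 3.23% of 2536 FAP/MP-marker cells and 4.92% of 244 tenocyte-marker cells, with median depths of 4480.5, 3839 and 4398 UMIs before thinning. Cells with a UMI of Cdkn1a, the CDK inhibitor p21, held Rrm1 in 12% and the other d0 cells in 3.81%, while for Pcna these shares were 15.9% and 16.6%. After injury Pcna was more frequent in cells with at least 3 mitosis members than in the rest, at 13.8% against 9.16% at d3 post-fracture, 13.0% against 4.92% at d5 post-fracture, 11.8% against 7.65% at d3 post-polytrauma and 7.77% against 4.03% at d5 post-polytrauma.

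The comparison of d3 post-fracture with d0 asks what the fracture next to the muscle did to proliferation. Of the 42 members, 37 were at least 2-fold higher at d3 on log2(CPM + 1), against 10.9% of the 9930 genes with at least 5 CPM in either library, and 0 were at least 2-fold lower, against 27.8% of those genes. With median-of-ratios scaling 39 were higher and 0 lower, against 23.6% and 15.6% of all genes. The median difference of the members was 3.11 on this log2 scale, and that of all these genes was -0.35. All 26 mitosis members were past the fold, with a median of 3.45 and a range of 1.44 to 6.05. Of the 16 S-phase members 11 were past it, with a median of 2.36.

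Birc5, survivin, a subunit of the complex that guides chromosome attachment, differed by 6.05 on the log2 scale, from 1.66 CPM at d0 to 175 at d3 post-fracture. The mitotic kinase Cdk1 went from 1.03 to 99.9 CPM, a ratio of 96.8 (61.2 to 163), and Ube2c, the E2 enzyme of the anaphase-promoting complex, from 2.35 to 138. These genes lay among the highest ratios of the 42. Pclaf, which binds the Pcna clamp, went from 1.78 to 150 CPM, a difference of 5.77. The 5 members short of the fold were all S-phase genes. Ccne1, which encodes cyclin E1, held 2.06 and 4.84 CPM (difference 0.93), the helicase subunit Mcm4 11.0 and 19.5 (0.78), the licensing factor Cdc6 4.42 and 4.51 (0.03), Pcna 86.5 and 62.3 (-0.47) and Rrm1 64.4 and 36.3 (-0.81). Pcna and Rrm1 were the members with lower values than at d0, and with median-of-ratios scaling Rrm1 alone.

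The cells themselves showed the same contrast. A cell was counted as holding the mitosis genes when at least 3 of the 26 had a UMI after thinning to 2000 UMIs. Such cells were 6 of 3888 at d0 (0.154%, 0.0567 to 0.336) and 1642 of 5364 at d3 post-fracture (30.6%, 29.4 to 31.9). They were 238 of 1438 at d5 post-fracture (16.6%, 14.7 to 18.6), 1676 of 6118 at d3 post-polytrauma (27.4%, 26.3 to 28.5) and 3706 of 11517 at d5 post-polytrauma (32.2%, 31.3 to 33.0). The d5 post-fracture share was the lowest of the injured libraries, by a margin that depended on the setting. With at least 5 members in place of 3 it was 11.5%, against 11.7% at d3 post-polytrauma. Without thinning the shares were 0.432, 64.8, 61.2, 62.6 and 64.1% in the order d0, d3 and d5 post-fracture, d3 and d5 post-polytrauma, at unequal depths.

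**Figure D2:**
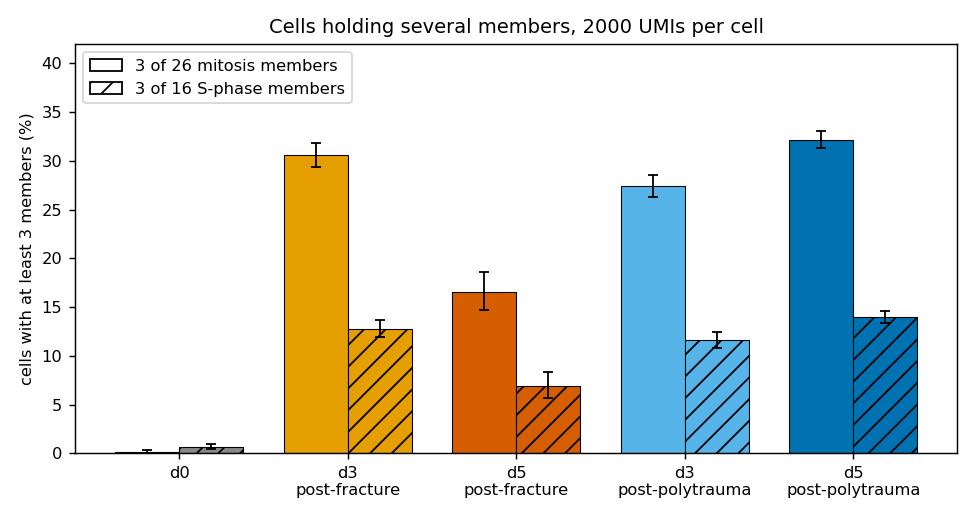
Percent of cells with at least 3 of the 26 mitosis members (plain bars) or 3 of the 16 S-phase members (hatched bars), each cell thinned to 2000 UMIs, with 95% Clopper-Pearson intervals over cells. Mitosis members were present in 30.6% of cells at d3 post-fracture and 16.6% at d5 post-fracture, and in 27.4% and 32.2% at d3 and d5 post-polytrauma.

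Cells with at least 3 S-phase members were fewer. They made up 0.694% at d0, 12.8% (11.9 to 13.7) at d3 post-fracture, 6.95% (5.69 to 8.39) at d5 post-fracture, 11.6% (10.8 to 12.5) at d3 post-polytrauma and 14% (13.4 to 14.6) at d5 post-polytrauma. The order of the injured libraries was that of the mitosis genes. The 2 gene groups met in the same cells, since of the cells with 3 mitosis members 23.7% at d3 post-fracture, 32.4% at d5 post-fracture, 23.5% at d3 post-polytrauma and 28.5% at d5 post-polytrauma also held 3 S-phase members, against 7.98, 1.92, 7.16 and 7.09% of the remaining cells. Deeper cells were more often in the class. Before thinning, cells with 3 mitosis members had 1.22 to 1.52 times the median UMIs of the rest of their library, and 4.2 to 14.5% of them were called possible doublets.

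Within the class, the level of the members was highest at d5 post-fracture among the injured libraries. The mitosis members made up 3369 CPM in the class cells at d3 post-fracture, 5628 at d5 post-fracture, 3057 at d3 post-polytrauma and 4275 at d5 post-polytrauma. In the other cells they made up 378, 205, 362 and 335. The class held 76.1 to 85.8% of all UMIs of the mitosis members in the injured libraries, and 49.9 to 58.3% of those of the S-phase members. Among the injured libraries, d5 post-fracture thus combined the smallest share of such cells with the highest level in them. At d0 the class was 6 cells, with 7417 CPM of the mitosis members (5956 to 9127). The members choose these cells, so the levels within the class are a description.

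The comparison of d5 with d3 post-fracture follows the same injury in time. In this comparison 32.6% of 9949 genes were at least 2-fold higher at d5 and 3.9% at least 2-fold lower, and the median of all genes was 0.57. Of the members 2 were at least 2-fold higher and 6 lower, with a median of -0.24. With median-of-ratios scaling, 1 member was higher and 16 were lower, against 11.75% and 20.56% of all genes, and the median was -0.93. The balance of higher and lower members thus depended on the scaling.

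The members higher at d5 post-fracture were Mki67, with 18.2 CPM at d3 and 62.1 at d5 (3.42-fold, 3.23 to 3.62), and Kif11, the kinesin that pushes the spindle poles apart, with 6.19 and 17.7 (2.86-fold, 2.58 to 3.17). The 6 lower members were mostly replication genes. Gins2, a subunit of the replicative helicase complex, went from 53.2 to 19.3 CPM, Rrm2 from 90.6 to 39.2, Pclaf from 150 to 68.0 and Mcm5 from 37.2 to 17.6. Of the mitosis genes, Ccnb2, which encodes cyclin B2, went from 102 to 39.4 CPM and Birc5 from 175 to 78.9. Cdk1, at 99.9 and 72.9 CPM, and Top2a, at 66.2 and 87.4, differed by less than the fold in opposite directions. With median-of-ratios scaling Top2a too was lower at d5, at 86.1 and 68.3.

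In CPM, the direction moved with transcript length among the mitosis members, though not among the S-phase members. With the members split at 3248.5 bases, the median length of their longest coding transcript in GENCODE M21, the 21 shorter ones had a median difference of -0.27 between d5 and d3 post-fracture (4 higher, 17 lower), and the 21 longer ones 0.08 (12 higher, 9 lower). Among the mitosis members alone the medians were -0.26 and 0.56. Among the S-phase members they were -0.50 and -0.31, with 2 higher and 6 lower on each side of the split. Over all genes the shorter had a median of 0.11 and the longer 0.91. Mki67, with 10061 bases, Cenpf, with 11130, and Kif11, with 4819, lay on the long side, and Ccnb2, with 1531, on the short side. Birc5, with 3334 bases and a lower value at d5, also lay on the long side. The part of the transcript length, or of what separated the barcode sets, in the differences between days was not tested.

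**Figure D3:**
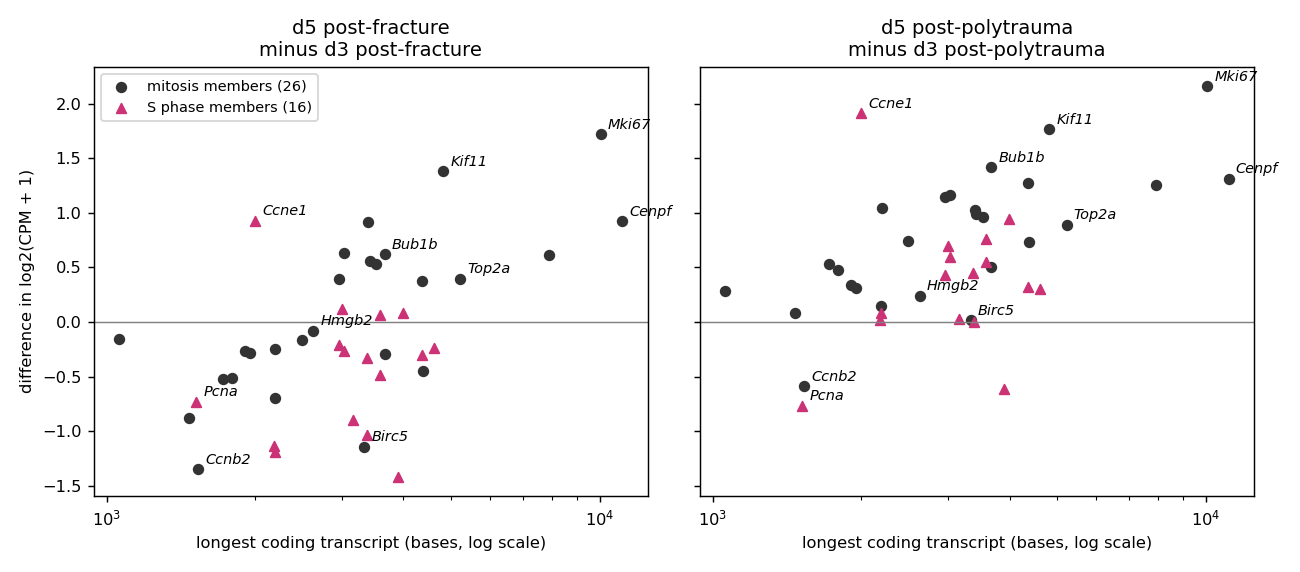
Difference of each member between d5 and d3 in log2(CPM + 1), after fracture (left) and after polytrauma (right), against the length of its longest coding transcript (bases, log scale). Points above the line were higher at d5, and Mki67, Kif11 and Cenpf, among the longest, lie high in both panels while Ccnb2 and Pcna, among the shortest, lie below the line in both.

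The d5 minus d3 comparison after polytrauma gave a different balance. Of the members 11 were at least 2-fold higher at d5, against 23.6% of 9521 genes, and 0 were at least 2-fold lower, against 3.21%. The count of higher members was thus near the share of all genes. The median was 0.54 and that of all genes 0.45. The 11 were Mki67 (18.2 to 84.7 CPM), Ccne1 (3.82 to 17.2), Kif11 (5.68 to 21.7), the checkpoint kinase Bub1b (6.75 to 19.7), the kinetochore proteins Cenpf (23.9 to 60.9) and Cenpe (21.1 to 51.6), the spindle factor Tpx2 (27.9 to 68.8), the midzone protein Prc1 (32.3 to 73.6), Ccna2, which encodes cyclin A2 (24.0 to 54.3), the Polo kinase Plk1 (13.7 to 29.2) and the midbody kinesin Kif23 (10.4 to 22.2). All but Ccne1 are mitosis genes. Lower values at d5 were found for Pcna (-0.77), Gins2 (-0.61), Ccnb2 (-0.59) and, by less than 0.01, Mcm5.

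With median-of-ratios scaling 3 members were higher and 3 lower in the polytrauma comparison, against 10.6% and 8.23% of all genes. The median was 0.07 against -0.03 for all genes. The count thus depended on the scaling, as did the share of all genes. In CPM, the length split gave medians of 0.34 for the shorter members and 0.89 for the longer, and 0.16 and 0.74 for all shorter and longer genes. With both scalings the members lay below the all-gene median after fracture and near it after polytrauma. After fracture the medians were -0.24 against 0.57 in CPM and -0.93 against -0.18 with median-of-ratios scaling. After polytrauma they were 0.54 against 0.45 in CPM and 0.07 against -0.03 with median-of-ratios scaling. The groups parted after polytrauma. The mitosis members had medians of 0.82 in CPM and 0.34 with median-of-ratios scaling, and the S-phase members 0.37 and -0.08. The cyclins differed from one another. Ccnb2 was below its d3 level at d5 in both injuries, whereas Ccna2 went from 22.6 to 29.98 CPM after fracture (29.3 and 23.4 with median-of-ratios scaling) and from 24.0 to 54.3 after polytrauma, and Ccnb1, the main mitotic cyclin, from 33.7 to 30.02 after fracture and from 27.8 to 47.1 after polytrauma.

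The comparison of d3 post-polytrauma with d3 post-fracture asks what the additional muscle injury changed early. None of the 42 members (0) was at least 2-fold higher or lower, against 1.66% of 8473 genes higher and 1.11% lower. The members had a median of -0.12 and a range of -0.64 to 0.20, and 33 of 42 had lower values in polytrauma. Of all genes, 4586 of 8473 had lower values in polytrauma, and the median was -0.03. The widest differences were in kinases, with Plk1 at 22.0 CPM post-fracture and 13.7 post-polytrauma, the mitotic kinase Pbk at 36.4 and 23.1, and Cdk1 at 99.9 and 64.4. Top2a (66.2 and 69.1), Mki67 (18.2 in both), Uhrf1 (17.8 in both) and Mcm6 (39.2 and 40.01) were nearly level. With the deposited labels this comparison would hold 2 higher and 6 lower members, against 32.6% and 3.9% of all genes.

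By d5 the injuries were further apart. Between d5 post-polytrauma and d5 post-fracture, 41 of 42 members had higher values in polytrauma, against 4729 of all 9987 genes. The members' median was 0.63, against -0.03 for all genes. Of the members 4 were at least 2-fold higher, against 1.1% of the 9987 genes, and 0 were lower, against 6.73%. The 4 were Pclaf, with 68.0 CPM post-fracture and 168 post-polytrauma (2.47-fold, 2.38 to 2.55), Uhrf1, which keeps DNA methylation in place after replication, with 12.4 and 26.5 (2.13-fold, 1.96 to 2.32), Birc5 with 78.9 and 161 (2.04-fold, 1.97 to 2.11) and Mcm5 with 17.6 and 36.3 (2.06-fold, 1.92 to 2.21). Mcm5 lay at the threshold, at 1.002 on the log2 scale. Pcna was the member with a lower value, 37.2 and 31.2 CPM. Without the upper gene limit the count was 1, against 0.962% of all genes, and with median-of-ratios scaling 8, against 2.45%. With the deposited labels it was 11, between libraries in which 23.6% of all genes were higher. These d5 libraries belonged to the same barcode set. From S and G2/M phase scores per sample, the study reported that proliferation did not differ between the injuries. Those scores are another measure than the summed levels and the shares of cells used here.

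The upper limit of 8000 genes touched the members at d5 post-fracture. It removed 30 barcodes there and 0 in the other libraries, and 17 of the 30 (56.7%, 37.4 to 74.5) held at least 3 mitosis members after thinning. The median depth of the 30 was 98664.5 UMIs, against 34949 for the retained cells, and they were not scored as possible doublets. With these barcodes kept, d5 minus d3 post-fracture gave 4 higher and 5 lower members, against 32.4% and 3.67% of all genes, with a median of -0.14.

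The remaining members kept to these patterns. Cdc20, the activator of the anaphase-promoting complex, held 2.81 CPM at d0, 57.1 at d3 post-fracture, 39.8 at d5 post-fracture, 43.2 at d3 post-polytrauma and 60.5 at d5 post-polytrauma, the Aurora kinase Aurka 0.918, 15.3, 12.6, 14 and 18, and the kinesin Kif20a 0.746, 16.3, 13.1, 14.9 and 21.6. Nusap1, which binds spindle microtubules, held 1.66, 16.4, 24.1, 14 and 28.1. These mitosis genes were all lowest at d0 and highest at d5 post-polytrauma. Of the helicase subunits, Mcm2 held 2.52, 19.5, 15.4, 17 and 23.6 CPM, Mcm3 4.82, 28.7, 23.6, 28.2 and 43.1, and Mcm7 9.75, 29.9, 25.7, 28.9 and 39.3, with the same lowest and highest libraries. Tyms held 12.7, 77.9, 41.3, 72.1 and 73.6, and Ccne2, which encodes cyclin E2, 2.64, 9.84, 10.8, 7.39 and 12.6. Tyms was the 1 gene of this paragraph that was not highest at d5 post-polytrauma in CPM. With median-of-ratios scaling Cdc20, Aurka, Kif20a, Mcm2, Mcm7 and Ccne2 were also highest at d3 post-fracture.

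Single members differed in how often they marked the mitosis class. So that a member did not count toward its own class, each mitosis member was looked for in cells with at least 3 other mitosis members, a number of cells that differs from gene to gene. Hmgb2 was found in 59.7, 73.8, 54.7 and 64.3% of such cells in the order d3 and d5 post-fracture, d3 and d5 post-polytrauma, but also in 9.64 to 14.9% of cells with no other member. Mki67 was found in 7.6% of cells with 3 others at d3 post-fracture and 7.0% at d3 post-polytrauma, against 38.5% and 30.2% at d5, and in at most 0.87% of the cells with no other member. At d3 the common proliferation marker was therefore not detected in most cells with 3 other mitosis members at this depth. Cenpf followed it with 9.0, 30.1, 9.5 and 21.2%, and Top2a with 20.6, 42.4, 23.0 and 33.1%. Birc5 varied less between the days, with 49.2, 41.2, 44.5 and 47.0%. The S-phase gene Pclaf was found in 36.9, 39.1, 39.8 and 43.0% of the whole class. Thinned detection of each gene is a description, as the members define the class.

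The mitosis genes were then located among cells that carry markers of the cell types present. A cell entered a marker class with UMIs of at least 2 of its markers after thinning and could enter several. FAP/MP markers (Prrx1, Cxcl12, Pdgfra, Ly6a and Cd34) were held by 65.2% of cells at d0 and 38.2, 46.2, 57.4 and 42.3% at d3 and d5 post-fracture and d3 and d5 post-polytrauma. Chondrocyte markers (Col2a1, Acan, Fgfr3 and Sox9) were held by 0.18, 1.27, 27.8, 0.262 and 3.53% from d0 to d5 post-polytrauma in the same order. Hematopoietic markers were held by at most 1.16% of cells. Of the 5 myogenic markers, Pax7, Myod1 and Myf5 were at 0 UMIs at d0, and Cdh15 and Chrna1 were not. At d3 and d5 post-polytrauma all 5 had UMIs, with sums of 3.72 and 1.30 CPM.

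At d5 post-fracture, cells with chondrocyte markers held the mitosis genes in 118 of 400 cells (29.5%, 25.1 to 34.2) and the rest in 11.6%. Cells with FAP/MP markers held them in 54 of 664 (8.13%, 6.17 to 10.5) and the rest in 23.8%. With both lists crossed, the share was 33.1% (27.9 to 38.6) of 314 cells with chondrocyte markers only, 16.3% of 86 cells with both, 17.4% of 460 with neither and 6.92% (4.99 to 9.30) of 578 with FAP/MP markers only. The S-phase members showed the same order, at 14% with chondrocyte markers only and 2.94% with FAP/MP markers only. The higher share in chondrocyte-marker cells held with 5 members in place of 3 (22.3% against 7.42%), without possible doublets (28.8% against 11.2%) and when thinned to 4000 UMIs (31.6% against 13.1%).

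**Figure D4:**
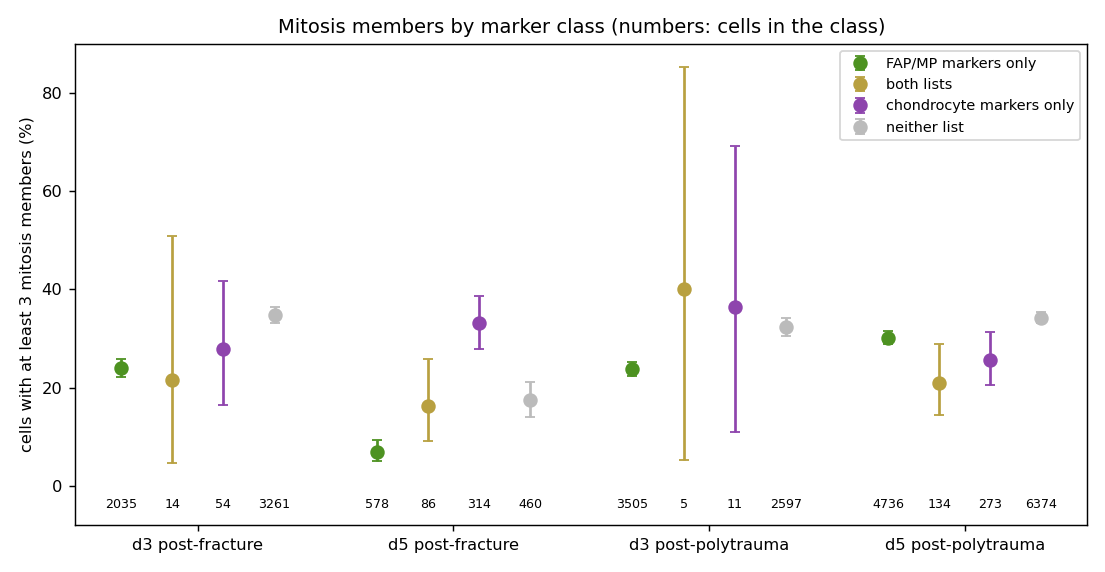
Percent of cells with at least 3 mitosis members by marker class in the 4 injured libraries, with 95% Clopper-Pearson intervals over cells and the number of cells in each class under the points. At d5 post-fracture the share was 33.1% with chondrocyte markers only and 6.92% with FAP/MP markers only, while at d5 post-polytrauma these were 25.6% and 30.1%.

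The order was not found at d5 post-polytrauma. There 98 of 407 chondrocyte-marker cells (24.1%, 20.0 to 28.5) held the mitosis genes and 32.5% of the rest, and FAP/MP-marker cells held them in 1454 of 4870 (29.9%) and the rest in 33.9%. With the lists crossed, the shares were 25.6% of 273 cells with chondrocyte markers only, 20.9% of 134 with both, 34.2% of 6374 with neither and 30.1% of 4736 with FAP/MP markers only. The chondrocyte-marker class need not hold the same cells at d5 in both injuries. In cells with no member, whatever their marker class, Col2a1, Acan and Sox9 held 575, 375 and 291 CPM post-fracture. Post-polytrauma they held 64.4, 101 and 163 CPM in such cells, so that Col2a1 was the highest of the 3 in the first library and Sox9 in the second. The study defined its chondrocytes by Col2a1, Acan and Fgfr3, detected them at d5 post-fracture, and found Sox9 already in the fibrogenic (matrix-producing) state. At d3, FAP/MP-marker cells held the mitosis genes in 24.0% after fracture and 23.8% after polytrauma, and the rest in 34.7% and 32.2%. FAP/MP-marker cells thus lay below the rest in all 4 injured libraries, by the widest margin at d5 post-fracture.

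Most single FAP/MP and chondrocyte markers gave the same picture. At d5 post-fracture the cartilage collagen Col2a1 held 2763 CPM in cells with 3 mitosis members and 575 in cells with none of the 42 members, a ratio of 4.80 (4.39 to 5.26). The ratio was 12.6 (5.46 to 33.8) for Fgfr3, a growth factor receptor of proliferating cartilage, 2.92 for Acan and 1.65 for Sox9. It was 0.135 (0.101 to 0.177) for Ly6a, 0.152 for Cd34, 0.286 for Cxcl12, 0.473 for Pdgfra and 0.463 for the fibrous collagen Col3a1. For Prrx1 it was 0.856, with an interval that included 1 (0.684 to 1.06). At d5 post-polytrauma Col2a1 held 73.5 and 64.4 CPM in these cells, a ratio of 1.14 (0.999 to 1.30), and Acan and Sox9 had ratios of 0.67 and 0.663. Fgfr3, with 21 and 11 UMIs, had a ratio of 1.52 (0.70 to 3.49). The ratios there were 0.740 for Ly6a, 0.759 for Cd34, 0.659 for Cxcl12, 0.826 for Pdgfra and 1.02 for Prrx1. Among hematopoietic-marker cells at d3 post-polytrauma, 5 of 71 (7.04%) held 3 mitosis members, against 27.6% of the other cells.

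A list of 86 further cell cycle genes was divided into 7 role groups. At d3 post-fracture 44 of the 86 were at least 2-fold higher than at d0 and 12 lower, against 10.9% and 27.8% of all genes. Of the 30 further mitosis genes 24 were higher, among them Cdca3, a trigger of mitotic entry (1.38 to 110 CPM), and 1 was lower, Pttg1, securin (93.7 to 25.04). Of the 22 further replication genes 14 were higher, among them Tk1, thymidine kinase (0.746 to 67.4), and Dut, which clears dUTP (13.0 to 154). Foxm1, the transcription factor of G2/M genes, went from 0.401 to 5.59 CPM.

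Between the days, the further mitosis genes numbered 1 higher and 3 lower of 30 after fracture, against 32.6% and 3.9% of all genes, and 14 higher and 0 lower after polytrauma, against 23.6% and 3.21%. Their median after fracture was 0.21, with 18 of 30 higher by any amount. For all genes the median was 0.57, with 7052 of 9949 higher by any amount. The lower genes after fracture were Spc24 (80.7 to 38.1 CPM), Cdca3 (110 to 40.4) and Cks1b, a partner of the cyclin-dependent kinases (298 to 92.9). The kinetochore scaffold Knl1 was the higher gene after fracture (4.49 to 14.6 CPM) and went from 3.54 to 22.2 after polytrauma. Of the replication genes 2 of 22 were lower at d5 post-fracture, Tk1 (67.4 to 17.4) and the licensing factor Cdt1 (16.8 to 7.21), and 0 differed by the fold after polytrauma, where Tk1 held 63.2 and 51.4. Between the injuries, 2 of the 86 genes were higher at d3 post-polytrauma, against 1.66% of all genes, and 0 were lower, against 1.11%. At d5, Ccnd1 (10.8 CPM post-fracture and 40.8 post-polytrauma) and Tk1 (17.4 and 51.4) were higher in polytrauma and Cdkn1c (160 and 47.4) was lower. The shares of all genes at d5 were 1.1% higher and 6.73% lower.

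The G1 cyclins and the CDK inhibitors did not move as a block. Cdkn1a, which arrests the cycle downstream of p53, held 829 CPM at d0, 84.4 at d3 post-fracture, 41.6 at d5 post-fracture, 187 at d3 post-polytrauma and 46.3 at d5 post-polytrauma. Cdkn1c, the inhibitor p57, held 49.5, 6.75, 160, 9.35 and 47.4, and Cdkn1b, the inhibitor p27, held 50.1, 11.7, 61.0, 10.4 and 30.8. All 3 were below d0 at d3 in both injuries, and the latter pair was higher again at d5, most at d5 post-fracture. Btg2, an antiproliferative gene, held 577, 136, 839, 78.9 and 425 CPM. Cdkn1a and the G1 cyclin Ccnd1 (9.21 and 24.4 CPM) were the 2 genes of the 86 that were higher at d3 post-polytrauma than at d3 post-fracture.

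Of the INK4 inhibitors, Cdkn2a and Cdkn2b followed another course. Cdkn2a held 0.459, 6.08, 11.8, 5.19 and 11.3 CPM and Cdkn2b 1.09, 6.81, 23.9, 4.72 and 12.5, both lowest at d0. Cdkn2c held 8.95, 7.09, 30.1, 6.37 and 23.9, and Cdkn2d 51.4, 22.4, 25.1, 15.2 and 24.5. In CPM the highest level was thus at d5 post-fracture for Cdkn2b and Cdkn2c and at d0 for Cdkn2d. Cdkn2a was nearly level at d5 in both injuries. Values with median-of-ratios scaling are not given for these genes. Of the G1 genes, Ccnd2 was highest at d0 (345, then 89.6, 82.0, 97.4 and 127 CPM), whereas Cdk4, the kinase of the D cyclins, was lowest at d0 (106, then 385, 178, 387 and 235). Ccnd3 lay between 58.4 and 73.1 and Cdk2 between 13.4 and 16.1 in all 5 libraries. Cdk6 was highest at d5 post-fracture, with 13.3, 10.2, 24.3, 7.32 and 12 CPM.

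**Figure D5:**
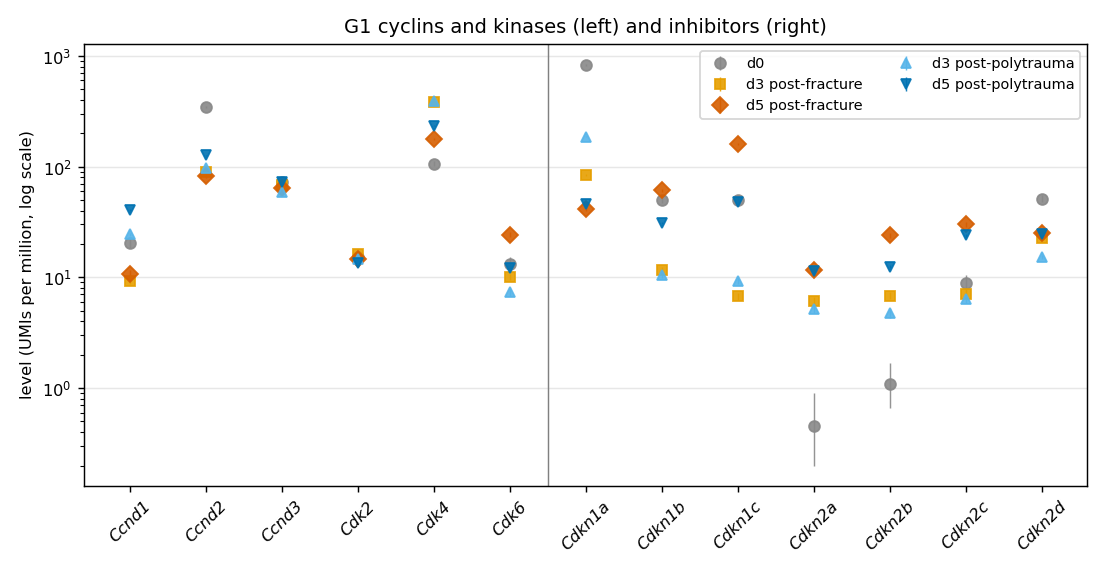
Level of 6 G1 cyclins and kinases (left of the line) and 7 CDK inhibitors (right) in the 5 libraries, in CPM on a log scale with 95% Poisson intervals. Cdkn1a and Ccnd2 were highest at d0 and Cdkn1c at d5 post-fracture, where it held 160 against 6.75 at d3 post-fracture.

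Within a library, some inhibitors were lower and others higher in cells with 3 mitosis members. The level of Cdkn1c in these cells relative to cells with no member was 0.322 at d3 post-fracture, 0.249 at d5 post-fracture, 0.271 at d3 post-polytrauma and 0.288 at d5 post-polytrauma. Btg2 had ratios of 0.435, 0.391, 0.684 and 0.571, and Cdkn1a of 0.674, 0.306, 0.868 and 0.611. The reverse was seen for Cdkn2d, the inhibitor p19, with ratios of 2.85, 4.23, 3.23 and 2.76. Cdkn2c, the inhibitor p18, was level at d3 post-fracture (0.982, 0.549 to 1.77) and above 1 at d5 post-fracture (3.51, 2.17 to 5.71) and d5 post-polytrauma (2.03, 1.61 to 2.58). Cdkn1b had ratios of 1.46, 0.585, 0.799 and 0.941, which lay on either side of 1. Those of Cdkn2a were 1.21 to 2.27 and those of Cdkn2b 1.09 to 1.92, and of these the interval lay above 1 for Cdkn2b at d5 post-polytrauma alone (1.11 to 2.11). Cdk4 had ratios of 1.40 to 1.88.

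Genes outside the list that went with the mitosis class were ranked by their smallest ratio, over the 4 injured libraries, between cells with 3 mitosis members and cells with no member. Of the 972 genes with at least 100 CPM in the class in every injured library, the first 12 were Cdca3, Spc24, Smc4, H2afz, Ccdc34, Tuba1b, Cks1b, Cks2, Dut, Nucks1, Lsm3 and Selenoh. Cdca3 had ratios of 9.30 to 24.5, Spc24, a kinetochore protein, of 6.00 to 20.2, and Smc4, a condensin subunit, of 5.14 to 5.96. H2afz, a histone variant, had ratios of 3.74 to 6.22. The minimum was set in the class, so a gene that is low elsewhere, such as Cdca3, Spc24, Smc4 or Ccdc34, entered the ranking through the class alone. Reads of Tuba1b may be shared with other tubulin genes of near-identical sequence, so its value is uncertain.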

How the data were processed

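Per the labels and the study's methods, 3′ libraries (10x Genomics) of sorted GFP+ cells were aligned to mm10 with Cell Ranger, for which the methods name a later version than the 3.1.0 of the matrix headers, and Seurat 3.1.2 was used downstream. The authors deposited raw counts of UMIs per gene and barcode, with no normalization. The members and lists were chosen with earlier results of these data known, and 2 libraries were used with exchanged labels. Barcodes with 350 to 8000 genes, under 20% mitochondrial UMIs and at least 1000 UMIs were retained (29831 of 34439 barcodes, 474766330 UMIs). Counts were summed per library and divided by the library total (CPM), so a few abundant genes can shift every other value. Differences were taken on log2(CPM + 1), which understates those of low genes, for comparison with all genes of at least 5 CPM in either library, and called past a 2-fold difference. Shares of cells were taken after random thinning to 2000 UMIs (28325 cells). Named genes were the 42 members, the further cell cycle genes past the fold (up to 6 per role group), all G1 genes and inhibitors, markers by their lists, and the first 12 outside genes. Possible doublets were scored with Scrublet in scanpy 1.11.5 at 0.8% per 1000 cells and left out only as an alternative, since the automatic threshold marked between 0 and 47 cells per library. Scripts ran in Python 3.11.15 with numpy 2.4.6 and scipy 1.17.1 and were tested on simulated data. Promoters came from the RefSeq table on GRCm38.p6 and transcript lengths from GENCODE M21, which lists 30934 of 31055 gene identifiers.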

Additional observations from a re-analysis of the deposited data

Results flagged for a closer look

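The members' difference between d5 and d3 went in opposite directions after the 2 injuries in CPM, with a median of -0.24 on the log2 scale after fracture and 0.54 after polytrauma. The difference between the injuries was not tested, since each condition is 1 library. The d5 and d3 libraries differ in barcode set in both comparisons, and the medians of all genes were 0.57 and 0.45. With median-of-ratios scaling the members' medians were -0.93 and 0.07, with 23 members higher and 19 lower after polytrauma.

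Cells with chondrocyte markers held at least 3 mitosis members more often than the other cells at d5 post-fracture, by 17.9 percentage points, and less often at d5 post-polytrauma, by -8.40 percentage points. This difference between the injuries was not tested either. The chondrocyte-marker class was 27.8% of cells in the first library and 3.53% in the second, and need not hold the same cells in both. The first library is among those used with exchanged labels, and these shares were not computed with the deposited labels.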

How the results depend on the processing

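No paired analysis was possible because each condition is 1 library. For the shares of cells, values are given in the order d0, d3 and d5 post-fracture, d3 and d5 post-polytrauma. With at least 2 members in place of 3, the mitosis shares were 1.85, 42.8, 22.4, 39.7 and 42.2% and the S-phase shares 5.12, 26.7, 12.8, 24.7 and 26.9%. With at least 5 members, the mitosis shares of the injured libraries were 15.3, 11.5, 11.7 and 20.1%, and the S-phase shares of all 5 were 0, 2.57, 1.95, 1.75 and 2.95%. Thinned to 1000 UMIs, they were 15.2, 11.99, 12.6 and 20.3% in the injured libraries for mitosis and 0.0864, 3.81, 2.18, 3.24 and 4.48% for S phase. Thinned to 4000 UMIs, they were 0.423, 45.1, 21.04, 42.03 and 44.1%, and 1.80, 29.0, 13.7, 26.4 and 28.9%. Without thinning, they were 0.432, 64.8, 61.2, 62.6 and 64.1%, and 2.20, 59.4, 67.1, 56.1 and 60.2%. Without Hmgb2, Stmn1 and Pcna, which were above the floor at d0, the mitosis shares of the injured libraries were 23.2, 13.5, 19.6 and 26.3%, and the S-phase shares were 0.154, 10.9, 10.0 and 13.1% at d0, d3 post-fracture and d3 and d5 post-polytrauma. Without possible doublets, the d5 post-polytrauma shares were 30.5% and 13.3%. The d5 post-fracture share was the lowest of the injured libraries in each of these settings, except for S phase with at least 5 members and for S phase without thinning.

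With the deposited labels, the d5 post-fracture shares became 27.4% and 11.6% and those of d3 post-polytrauma 16.6% and 6.95%. The counts of members at least 2-fold higher and lower became 0 and 0 for d5 minus d3 post-fracture and 2 and 6 for d3 post-polytrauma minus d3 post-fracture, and those higher became 11 between the d5 libraries and 4 between d5 and d3 post-polytrauma. In the same order, the shares of all genes were 1.66% and 1.11%, 32.6% and 3.9%, 23.6% higher, and 1.1% higher. With a fold of 1.5, d3 post-fracture minus d0 had 1 lower member, d5 minus d3 post-fracture 8 higher and 10 lower, the d3 injuries 3 lower, the d5 injuries 24 higher, and d5 minus d3 post-polytrauma 20 higher and 3 lower. The shares of all genes past a fold of 1.5 are not given, so these counts show the effect of the cut and nothing about the members. With median-of-ratios scaling, d5 minus d3 post-fracture had 1 higher and 16 lower, the d5 injuries 8 higher, and d5 minus d3 post-polytrauma 3 higher and 3 lower, beside the shares of all genes given above for this scaling. Without the upper gene limit, a setting chosen after seeing the data like the length split and the crossed marker lists, 4 were higher at d5 post-fracture than at d3 and 1 between the d5 injuries, which was also 1 with a pseudocount of 5. The cause was not tested. Leaving out shared barcodes, the mean of per-cell CPM, dropping the UMI minimum and a pseudocount of 0.1 left the shares of cells and the counts over all 42 members that were computed under them within their limits. Of the other results, 1 count moved with a pseudocount of 0.1, and 16 values moved without the UMI minimum and 168 with the mean of per-cell CPM. Without a filter on low genes, all 10 background shares moved. At a median of 3640 UMIs per cell the d0 library was the shallowest, and 1 UMI there is a larger level than elsewhere.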
